A study of Mus musculus with 15 samples.

Results

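The perineuronal net is the dense extracellular matrix that wraps the cell body and proximal dendrites of certain neurons, and 9 genes of its matrix were followed here in the mouse medial prefrontal cortex (mPFC). The genes were the lecticans Acan, Bcan, Ncan and Vcan, the link proteins Hapln1 and Hapln4, the tenascins Tnr and Tnc, and the receptor phosphatase Ptprz1. They were chosen by name, with earlier results of these data known, and matched by Entrez gene identifier. This gave 9 of the 27179 identifiers in the deposited count table. All 9 were among the 16816 genes that passed the filter on low counts.

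Bulk RNA was sequenced from dissected mPFC of C57BL/6J mice in 15 libraries, and each gene was quantified as a read count. Mice either received ABX, which commonly stands for an antibiotic mixture, or did not, and were sampled either ahead of fear extinction, in which repeated exposure to a cue lessens a learned fear of it, or afterwards. There were 3 libraries in the pre-extinction non-ABX group, numbered 1, 3 and 4 in the labels, and 4 in each of the pre-extinction ABX, post-extinction non-ABX and post-extinction ABX groups. All groups were of the same strain, and no genetic change is labelled in any of them. The agents in ABX, its dose and duration, and the age and sex of the mice, are not given here. Sorted cells are mentioned in the protocol text, while dissected tissue is the labelled source of every sample. Nothing says that a library equals 1 animal, so a p-value here reflects only the spread between libraries, which may be technical.

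A perineuronal net is built on hyaluronan chains, to which lecticans, the chondroitin sulfate proteoglycans of the brain, bind at one end while link proteins lock the bond. Tenascin-R joins the other ends of the lecticans into a lattice. In the cortex the nets surround mainly parvalbumin interneurons, close around the end of the critical period, and are known for limiting plasticity and for stabilising fear memories, whereas looser matrix of related composition fills the space between other cells. Astrocytes, oligodendrocyte precursors and neurons each make different components.

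The lecticans and link proteins lie beside each other in the mouse genome (positions are on GRCm38, from RefSeq). Acan, which encodes aggrecan, the lectican most closely tied to mature nets, lies on chromosome 7 from 79053226 to 79115099. Bcan (chromosome 3, 87987531 to 88002175) encodes brevican, and Ncan (chromosome 8, 70093085 to 70120863) neurocan, both largely restricted to the nervous system. Vcan (chromosome 13, 89655309 to 89743027) encodes versican, made in many tissues and in brain largely by oligodendrocyte precursors. Hapln4 (chromosome 8, 70083529 to 70090862), a brain link protein, lies 2222 bases from Ncan with 0 genes between them. Hapln1 (chromosome 13, 89540529 to 89611832), the cartilage link protein that is also needed for compact nets, lies 43476 bases from Vcan, again with 0 genes between. The lecticans Acan and Bcan have the link proteins Hapln3 and Hapln2 as their neighbours in the same way. Tnr (chromosome 1, 159523729 to 159931729) encodes tenascin-R, which in the adult is made by oligodendrocytes and some neurons. Tnc (chromosome 4, 63959785 to 64047015) encodes tenascin-C, a matrix protein of development and injury. Ptprz1 (chromosome 6, 22875315 to 23052916) encodes a receptor tyrosine phosphatase whose secreted splice form is phosphacan, a ligand of the tenascins.

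The members differ in the base composition of their transcripts, and this property recurs in the results below. In the longest coding transcript of GENCODE on GRCm38, G and C made up 60.7% of bases in Bcan, 57.0% in Hapln4, 55.1% in Ncan, 54.8% in Acan and 52.5% in Tnc. The share was 47.7% in Tnr, 44.5% in Ptprz1, 43.7% in Vcan and 39.8% in Hapln1. The following 120-base stretches of coding sequence show the contrast between the 2 members richest in G and C among the abundant lecticans and 2 members that are poor in them. Each is the first in-frame stretch whose composition is nearest to that of the whole transcript, written 5′ to 3′ on the coding strand with every G and C in capitals. Bcan has 73 such bases of 120 and Ncan 66, against 52 in Vcan and 53 in Ptprz1.
Bcan: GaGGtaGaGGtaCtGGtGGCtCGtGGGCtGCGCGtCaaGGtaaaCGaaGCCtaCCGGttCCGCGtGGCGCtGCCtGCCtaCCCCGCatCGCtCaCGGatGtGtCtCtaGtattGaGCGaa
Ncan: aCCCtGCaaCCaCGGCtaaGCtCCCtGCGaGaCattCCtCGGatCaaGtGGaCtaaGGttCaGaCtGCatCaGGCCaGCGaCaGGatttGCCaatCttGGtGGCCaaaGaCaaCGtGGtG
Vcan: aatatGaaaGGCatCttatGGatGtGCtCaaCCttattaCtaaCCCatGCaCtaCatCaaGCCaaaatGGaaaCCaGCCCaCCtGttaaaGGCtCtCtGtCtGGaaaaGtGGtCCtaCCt
Ptprz1: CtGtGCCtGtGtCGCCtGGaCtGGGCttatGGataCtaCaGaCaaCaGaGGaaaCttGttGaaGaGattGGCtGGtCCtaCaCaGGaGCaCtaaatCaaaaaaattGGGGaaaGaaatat

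The promoters do not divide the members in the same way. Of the 9 genes, 8 had an entry in the RefSeq promoter table for GRCm38.p6, which holds 250 bases before and 50 after a start site, and Hapln4 had none. The windows of Acan and Ptprz1 are shown because these genes have promoters of like composition and transcripts of unlike composition. G and C made up 74.0% of the Acan window (31 CG dinucleotides) and 71.7% of the Ptprz1 window (29 CG dinucleotides), where the median over all promoters of that length was 52.7%. Capitals mark the GC box (GGGCGG) and the CCAAT box (CCAAT) on either strand, and overlapping GC boxes run together.
Acan promoter, chr7:79052976-79053275, plus strand: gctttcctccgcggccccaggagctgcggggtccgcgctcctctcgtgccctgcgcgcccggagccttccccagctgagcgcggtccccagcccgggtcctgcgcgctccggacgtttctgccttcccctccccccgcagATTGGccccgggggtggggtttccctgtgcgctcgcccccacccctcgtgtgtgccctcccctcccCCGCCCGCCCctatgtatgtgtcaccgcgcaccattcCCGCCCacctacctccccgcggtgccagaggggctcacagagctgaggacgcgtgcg
Ptprz1 promoter, chr6:22875252-22875551, plus strand: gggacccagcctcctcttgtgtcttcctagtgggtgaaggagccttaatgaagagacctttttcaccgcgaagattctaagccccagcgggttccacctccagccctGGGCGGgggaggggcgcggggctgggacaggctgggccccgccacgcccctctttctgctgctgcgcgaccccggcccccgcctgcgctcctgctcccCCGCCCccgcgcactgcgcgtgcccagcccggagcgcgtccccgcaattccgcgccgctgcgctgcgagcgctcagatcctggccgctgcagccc

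The Acan window held 3 GC boxes and 1 CCAAT box, and the Ptprz1 window 2 GC boxes and 0 CCAAT boxes. Of 32851 promoters of this length, 35.7% held a GC box and 37.4% a CCAAT box on either strand, so these matches are common and describe only the letters.

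Depth was 44254906 to 57929503 counts per library, and 19621 to 19939 identifiers had counts. The biological coefficient of variation over all genes was 0.112. Counts per library were 146 to 325 for Acan and 156 to 358 for Tnc, the least covered members, and at least 705 for each of the others. No library was a copy of another. The defining markers of the labelled tissue were present, judged by the mean over all 15 libraries. By that mean 10 of 10 genes of cortical excitatory neurons were above 1 CPM (a count scaled to a common depth of sequencing). Of 8 genes of other brain regions 5 (Gabra6, Hcrt, Avp, Hoxb5 and Barhl1) were under 1 CPM. The other 3 (Tcf7l2, Tac2 and Prox1) were not, and the 8 summed to 18.9 to 23.1 CPM per library. Markers of striatal projection neurons, 8 of 10 of them above 1 CPM by the same mean, summed to 253 to 337 CPM. One property set libraries apart within groups. The slope of a library's gene levels on GC content, relative to the mean of all libraries, ran from -0.42 per 10 percentage points of GC (log2 scale) in pre-extinction ABX replicate 1 to 0.33 in pre-extinction non-ABX replicate 3. Group means of the slope were -0.21 ± 0.21 (SD, n = 4) in pre-extinction ABX, 0.04 ± 0.25 (SD, n = 3) in pre-extinction non-ABX, 0.01 ± 0.14 (SD, n = 4) in post-extinction ABX and 0.17 ± 0.11 (SD, n = 4) in post-extinction non-ABX. Values for the members are therefore given as fitted, and beside the main ones with this trend removed.

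Per length, brevican was the highest of the 9 transcripts and aggrecan the lowest. Each level was divided by the length of the gene's longest coding transcript. Shorter splice forms were not measured, and their use could alter this order and the lectican shares below. Over 15 libraries Bcan was at 63.8 ± 13.2 CPM per kilobase of transcript, Hapln4 at 51.2 ± 4.08, Ptprz1 at 35.6 ± 5.20 and Ncan at 33.6 ± 3.46. Tnr followed at 11.9 ± 1.78, Hapln1 at 3.23 ± 0.395, Vcan at 2.27 ± 0.254, Tnc at 0.631 ± 0.125 and Acan at 0.585 ± 0.102 (SD, n = 15 for each). Neighbours in this order whose ranges over libraries overlapped were Bcan and Hapln4, Hapln4 and Ptprz1, Ptprz1 and Ncan, Hapln1 and Vcan, and Tnc and Acan. The steps from Ncan to Tnr, from Tnr to Hapln1 and from Vcan to Tnc were larger than the spread over libraries. Among the 4 lecticans, and per length, Bcan made up 63.2 ± 3.52% of the summed level, Ncan 33.9 ± 3.08%, Vcan 2.35 ± 0.579% and Acan 0.586 ± 0.0630% (SD, n = 15). Bulk tissue cannot tell fewer cells of a type from less RNA per cell, which holds for every difference between groups below.

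**Figure D1:**
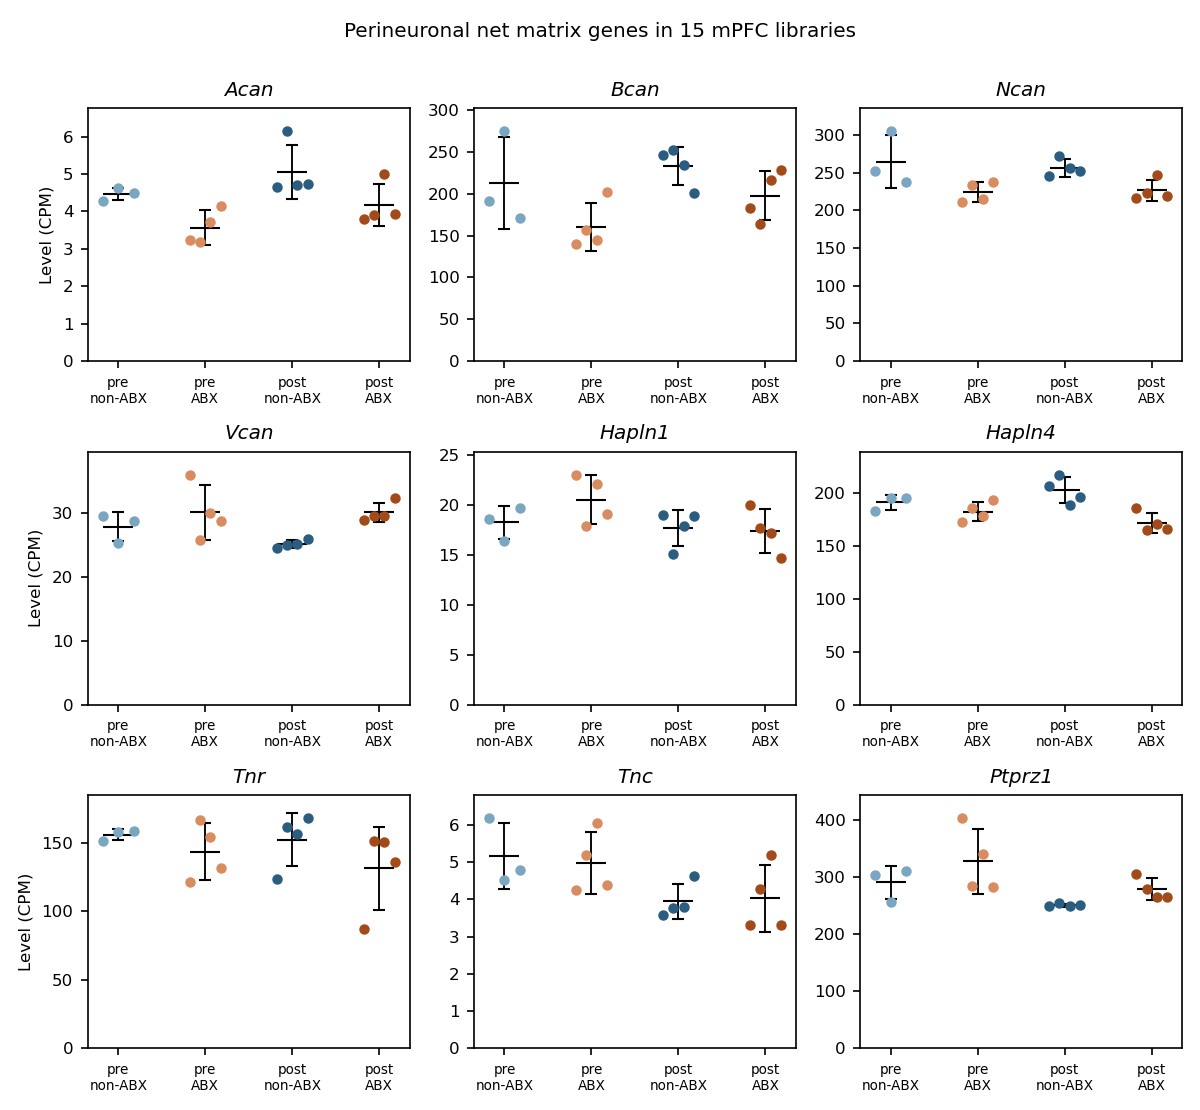
Level of the 9 perineuronal net matrix genes in 15 mPFC libraries, in CPM after scaling of the libraries. Each point is 1 library, horizontal bars are group means and whiskers are SD (n = 3 for pre-extinction non-ABX, n = 4 otherwise), and each axis starts at 0. The ABX libraries lie lower for Acan, Bcan and Ncan on average, and after extinction the ABX libraries lie wholly above the non-ABX libraries for Vcan and Ptprz1 and wholly below them for Hapln4.

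Comparing both treatments before extinction shows how the matrix transcripts stood when extinction had not yet taken place. The lecticans Acan, Bcan and Ncan were at lower mean levels with ABX, and Vcan, Hapln1 and Ptprz1 at higher ones, but edgeR called 0 of the 9 at an adjusted p under 0.05. Acan was at 3.23, 3.18, 3.71 and 4.15 CPM in the ABX libraries and at 4.29, 4.63 and 4.48 CPM in the non-ABX libraries. All 4 ABX libraries were thus below all 3 non-ABX libraries, the only such member in this comparison, where 6.76% of all genes tested had groups that did not overlap. The means were 3.57 ± 0.459 (SD, n = 4) and 4.47 ± 0.167 CPM (SD, n = 3), a log2 fold change of -0.32 (SE 0.13, edgeR's adjusted p = 0.311).

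Brevican and neurocan overlapped between these groups. Bcan was at 139.7, 156, 144 and 202 CPM with ABX and at 192, 275 and 171 CPM without, so that pre-extinction ABX replicate 4 lay above 2 of the 3 non-ABX libraries (log2 fold change -0.40, SE 0.16, edgeR's adjusted p = 0.311). Ncan was at 211, 234, 215 and 238 CPM with ABX and at 252, 305 and 238 CPM without (log2 fold change -0.24, SE 0.08, edgeR's adjusted p = 0.311). Pre-extinction non-ABX replicate 3 was the highest library of all 15 for both genes, and it was also the library with the highest slope on GC content. Without it the log2 fold change of Bcan was -0.17 and that of Ncan -0.13. Once the trend on GC content was removed Bcan had -0.02 (SE 0.05), Ncan -0.08 (SE 0.05) and Acan -0.19 (SE 0.12). Versican showed no such shift, averaging 27.8 ± 2.28 CPM in non-ABX and 30.002 ± 4.30 CPM in ABX libraries (log2 fold change 0.11, SE 0.09).

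The link proteins, tenascins and the phosphatase had 95% intervals that included 0 before extinction. Hapln1 had a log2 fold change of 0.17 (95% interval -0.08 to 0.42) and Hapln4 one of -0.07 (-0.21 to 0.07). For Tnr it was -0.12 (-0.46 to 0.22), for Tnc -0.06 (-0.42 to 0.31) and for Ptprz1 0.17 (-0.05 to 0.40). Ptprz1 in the ABX group was spread from 283 to 403 CPM, the highest value being pre-extinction ABX replicate 1, and its log2 fold change was 0.06 without that library and also 0.06 with the trend on GC content removed. Over the 9 genes 3 had positive and 6 negative fold changes with a median of -0.07, where the median over all genes tested was 0.01. An unadjusted p under 0.05 was reached by 3 members, all lower with ABX, and by 16% of all genes tested. DESeq2 and voom with quality weights each called 0, and 0.00595% of all genes tested were called by edgeR.

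After extinction the same question was asked of mice that had been through it. EdgeR again called 0 of 9 members (0.0178% of all genes tested were called), while 4 had an unadjusted p under 0.05, namely Acan, Ncan and Hapln4 lower with ABX and Vcan higher, where 13.3% of all genes did. The 2 groups did not overlap for Hapln4, Vcan and Ptprz1, that is 3 of 9 members where 11.1% of all genes did so. The brain link protein Hapln4 was at 186, 165, 171 and 166 CPM in the ABX libraries and at 207, 217, 189 and 197 CPM in the non-ABX libraries. Its highest ABX library, replicate 1, was still below its lowest non-ABX library, replicate 3 (log2 fold change -0.24, SE 0.06, edgeR's adjusted p = 0.173). DESeq2, which called 1.17% of the genes to which it gave an adjusted p, called this gene (adjusted p = 0.0321), and so did voom with quality weights (adjusted p = 0.0481), which called 1.82% of all genes. With the trend on GC content removed its log2 fold change was -0.08 (SE 0.08, edgeR's adjusted p = 0.673).

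Versican and the phosphatase lay on the other side. Vcan was at 28.9, 29.5, 29.5 and 32.2 CPM with ABX and at 24.4, 25.0, 25.1 and 25.8 CPM without, 2 narrow groups that did not meet (log2 fold change 0.26, SE 0.09, edgeR's adjusted p = 0.274). Vcan was called by voom with quality weights (adjusted p = 0.0494), and with the trend on GC content removed it had 0.18 (SE 0.07, edgeR's adjusted p = 0.225). Ptprz1 was at 306, 279.6, 266 and 265 CPM with ABX and at 249, 254, 249 and 251 CPM without. The non-ABX group for Ptprz1 was the tightest of any member, with a coefficient of variation of 0.917%, and its log2 fold change was 0.15 (SE 0.10, edgeR's adjusted p = 0.4663).

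The other lecticans after extinction stood on the same side as before it, with overlap. Acan was at 3.81, 3.91, 4.997 and 3.94 CPM with ABX and at 4.64, 6.15, 4.72 and 4.73 CPM without (log2 fold change -0.28, SE 0.12, edgeR's adjusted p = 0.350). A single ABX library, replicate 3, reached the non-ABX range. Ncan was at 217, 223, 247 and 219 CPM with ABX and at 246, 273, 256 and 252 CPM without, with the same ABX replicate 3 as the only overlap (log2 fold change -0.18, SE 0.08, edgeR's adjusted p = 0.344). Bcan averaged 234 ± 23.0 CPM in non-ABX and 198 ± 29.7 CPM in ABX libraries (SD, n = 4), with a log2 fold change of -0.24 and an SE of 0.15. After removal of the GC-content trend Bcan had 0.01 (SE 0.05), Acan -0.20 (SE 0.11), Ncan -0.08 (SE 0.05) and Ptprz1 0.07 (SE 0.06). Hapln1 (-0.03, 95% interval -0.26 to 0.20), Tnr (-0.21, -0.53 to 0.10) and Tnc (0.03, -0.31 to 0.38) had intervals on both sides of 0. Tnr, the crosslinker of the lattice, was lowest of all 15 libraries in post-extinction ABX replicate 1, at 87.2 CPM against 136 to 152 CPM in the other 3 libraries of that group, and without that library its log2 fold change was -0.06.

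The average of both ABX comparisons uses all 15 libraries. The proteoglycans Acan, Bcan and Ncan and the link protein Hapln4 were lower with ABX, and Vcan and Ptprz1 higher, each with an unadjusted p under 0.05, yet edgeR called 0 of 9 members. Here 0.624% of all genes tested were called and 30.6% had an unadjusted p under 0.05, against 6 of 9 members. The log2 fold changes were -0.30 for Acan (SE 0.09, edgeR's adjusted p = 0.0709), -0.32 for Bcan (SE 0.11, edgeR's adjusted p = 0.0836) and -0.21 for Ncan (SE 0.06, edgeR's adjusted p = 0.0649). Hapln4 had -0.15 (SE 0.05, edgeR's adjusted p = 0.0702), Vcan 0.19 (SE 0.06, edgeR's adjusted p = 0.0874) and Ptprz1 0.16 (SE 0.07, edgeR's adjusted p = 0.143). The remaining members had intervals on both sides of 0, namely Hapln1 (0.07, 95% interval -0.10 to 0.24), Tnr (-0.17, -0.40 to 0.06) and Tnc (-0.01, -0.26 to 0.24). None of the 9 separated the 8 ABX libraries from the 7 non-ABX libraries without overlap, as 0.511% of all genes did.

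The calls in this average turned on the tool and on single libraries. DESeq2 called Acan (adjusted p = 0.0274), Bcan (0.0440), Ncan (0.0178) and Hapln4 (0.0232), 4 of 9 members where 13.3% of the genes with a DESeq2 adjusted p were called. Voom with quality weights called Ncan (0.0472) and 5.36% of all genes. Without pre-extinction ABX replicate 4 edgeR called the same 4 genes, with log2 fold changes of -0.34 for Acan, -0.39 for Bcan, -0.22 for Ncan and -0.17 for Hapln4 and adjusted p from 0.0279 to 0.0308, in a fit that called 18.2% of all genes. Without pre-extinction non-ABX replicate 4 it called Ncan (-0.24, adjusted p = 0.0465) and 6.2% of genes, and with the replicate number as a block likewise Ncan (-0.21, adjusted p = 0.0471) and 3.96% of genes. Without pre-extinction non-ABX replicate 3 Bcan had -0.20 and Ncan -0.15, the values nearest to 0 of any fit that left out 1 library. With the trend on GC content removed 0 members and 4.6% of genes were called, and the values were -0.19 for Acan (SE 0.08, edgeR's adjusted p = 0.141), -0.08 for Ncan (SE 0.03) and -0.01 for Bcan (SE 0.03). Under the same setting Vcan had 0.08, Ptprz1 0.06, and Hapln4 turned to 0.04, Hapln1 to -0.06 and Tnc to 0.02. Tnr kept its sign and grew in size, from -0.17 to -0.22 (SE 0.11, edgeR's adjusted p = 0.218).

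**Figure D2:**
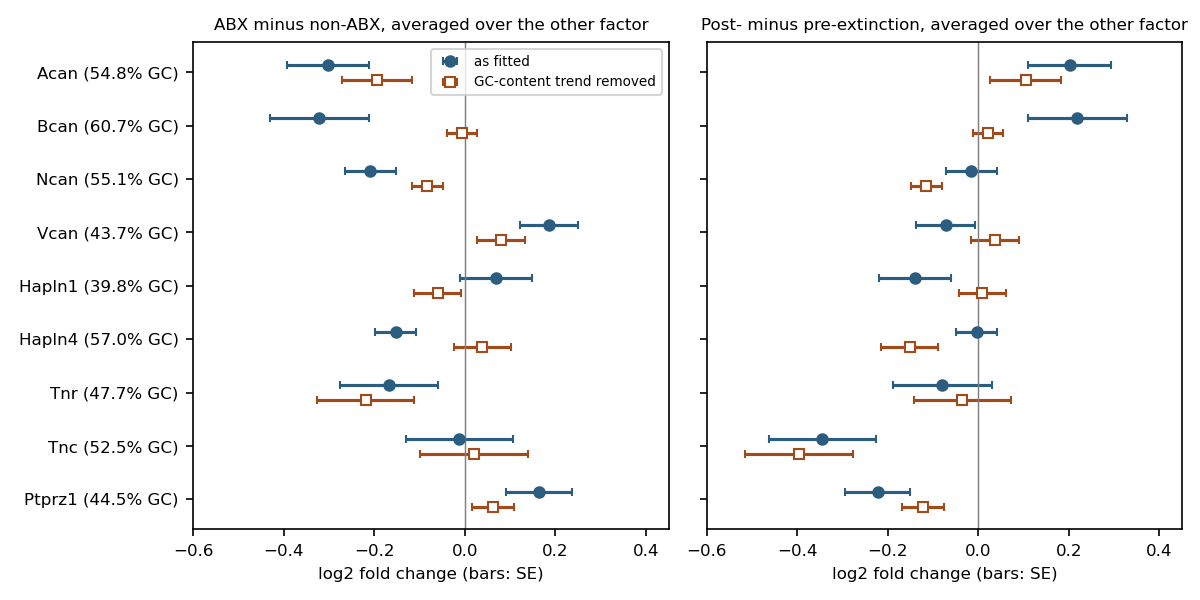
Log2 fold change (points) and its standard error (bars) of each member in the averaged ABX comparison (left) and the averaged stage comparison (right), as fitted and with the GC-content trend of each library removed. The percentage beside each name is the GC content of its longest coding transcript. On the left Bcan moves from -0.32 to -0.01 when the trend is removed, and on the right Tnc stays near its fitted value of -0.35.

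Stage comparisons set the post-extinction against the pre-extinction libraries of one treatment. Without ABX, edgeR called 0 of 9 members and 0% of all genes tested, with 1 member and 4.94% of genes at an unadjusted p under 0.05. DESeq2 called 0 members and 19 genes here, and voom with quality weights 4 members (Bcan higher, Vcan, Tnc and Ptprz1 lower) and 19% of genes. Tenascin-C had the smallest unadjusted p among members, 0.0378, at 3.58, 3.76, 3.79 and 4.64 CPM after extinction and 6.17, 4.51 and 4.79 CPM before. Its groups overlapped, because post-extinction non-ABX replicate 4 exceeded pre-extinction non-ABX replicate 3 (log2 fold change -0.39, SE 0.17, edgeR's adjusted p = 0.896). Groups that did not overlap were seen for Acan, higher after extinction (0.18, SE 0.13), and Ptprz1, lower after extinction (-0.21, SE 0.11), that is 2 of 9 members where 5.91% of all genes did so. Both margins were narrow. The nearest libraries before and after extinction were at 4.63 and 4.64 CPM for Acan and at 257 and 254 CPM for Ptprz1. Removal of the GC-content trend gave values of -0.42 for Tnc, 0.11 for Acan, -0.13 for Ptprz1 and 0.0045 for Bcan.

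With ABX, edgeR called 0 of 9 members (0.0951% of all genes tested were called), as did DESeq2 and voom with quality weights, and 2 members and 16.6% of genes had an unadjusted p under 0.05. These were Hapln1, at 20.5 ± 2.44 CPM before and 17.4 ± 2.17 CPM after extinction (log2 fold change -0.24, SE 0.11, edgeR's adjusted p = 0.291), and Ptprz1, at 328 ± 56.8 CPM before and 279 ± 18.9 CPM after (-0.23, SE 0.10, edgeR's adjusted p = 0.270), each with n = 4 and SD. In both genes pre-extinction ABX replicate 1 was the highest library of all 15, and without it Ptprz1 had -0.11. The groups overlapped for all 9 members, where 5.47% of all genes had groups that did not. Bcan had 0.30 (SE 0.15), Acan 0.22 (SE 0.13) and Tnc -0.30 (SE 0.16). When the GC-content trend was removed Bcan had 0.04, Acan 0.10, Hapln1 -0.05, Ptprz1 -0.12 and Tnc -0.37. Hapln4, which had -0.09 (SE 0.06) as fitted, had -0.27 (SE 0.09, edgeR's adjusted p = 0.158) under that setting.

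Averaged over both treatments, edgeR called 0 of 9 members for stage, where 0.963% of all genes tested were called and 0.309% separated all libraries of the 2 stages without overlap. An unadjusted p under 0.05 was reached by 3 members (Tnc, Ptprz1 and Acan) and 20.4% of genes. Tnc was lower after extinction by the most, with a log2 fold change of -0.35 (SE 0.12, edgeR's adjusted p = 0.147), followed by Ptprz1 with -0.22 (SE 0.07, edgeR's adjusted p = 0.132). Acan (0.20, SE 0.09, edgeR's adjusted p = 0.229) and Bcan (0.22, SE 0.11, edgeR's adjusted p = 0.265) were on the higher side. The values for Ncan (-0.02), Hapln4 (-0.00), Vcan (-0.07), Tnr (-0.08) and Hapln1 (-0.14) had 95% intervals that included 0. Removing the GC-content trend left Tnc at -0.40 (SE 0.12, edgeR's adjusted p = 0.0962), while Bcan went to 0.02, Acan to 0.10 and Ptprz1 to -0.12. Ncan had -0.12 (SE 0.03, edgeR's adjusted p = 0.0956) and Hapln4 -0.15 (SE 0.06) with the trend removed. The summed level of markers of another brain region differed by stage, though the single genes were divided. The 10 genes of striatal projection neurons summed to 253 to 276 CPM in the 7 pre-extinction libraries and 289 to 337 CPM in the 8 post-extinction libraries, without overlap. Of the 9 of them tested, 5 had positive and 4 negative fold changes for stage. Their median was 0.17, and 0.03 with the trend on GC content removed. EdgeR called 1 of the 9 for stage, Pde10a, a phosphodiesterase abundant in striatal neurons (0.47, SE 0.08, adjusted p = 0.0212), named here after its value was seen. Drd2 and Isl1 were under 1 CPM on average over all libraries, and the part of this difference in summed level in the members' stage values was not tested.

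Calls for stage also moved with the setting. Voom with quality weights, which gives less weight to libraries that scatter more, called Ptprz1 (adjusted p = 0.00420), Bcan (0.00609), Tnc (0.00733) and Acan (0.0277) in the averaged stage comparison, 4 of 9 members where it called 37.8% of all genes, and DESeq2 called 0 members. Without pre-extinction non-ABX replicate 3 edgeR called Bcan (0.34, adjusted p = 0.0428) and Ptprz1 (-0.26, adjusted p = 0.0383), along with 13.3% of all genes. The interaction, which tests whether the ABX difference changed between stages, had 0 of 9 members and 0% of all genes called by edgeR. There 0 members and 2.06% of genes had an unadjusted p under 0.05, DESeq2 called 0 members and 4 genes, and voom with quality weights called 0 of either. Hapln4 had the smallest unadjusted p of the members here (-0.17, SE 0.09, 0.0790 in edgeR's test), and its difference from non-ABX libraries was -0.07 before and -0.24 after extinction.

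The members' differences were set against the GC content of their transcripts. In the averaged ABX comparison the GC-rich Bcan, Hapln4, Ncan and Acan all had negative fold changes, and the GC-poor Vcan, Ptprz1 and Hapln1 positive ones. Pearson's r between the fold change and transcript GC content was -0.83 over the 9 members and -0.61 over 15332 genes with a matched transcript. Genes are not independent replicates, and these correlations are descriptions. Over all genes the median log2 fold change was 0.12 in 3461 genes under 45% GC and -0.22 in 3870 genes over 55% GC. In the averaged stage comparison the relation had the opposite sign, with r of 0.58 over members and 0.59 over all genes, and medians of -0.13 under 45% GC and 0.15 over 55% GC. There Bcan (0.22) and Acan (0.20) were positive, but the likewise GC-rich Ncan (-0.02) and Hapln4 (-0.0033) were not. Tnr, with 47.7% GC, and Tnc, with 52.5% GC, were the members farthest from the trend, Tnr in the ABX comparison and Tnc in the stage comparison.

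**Figure D3:**
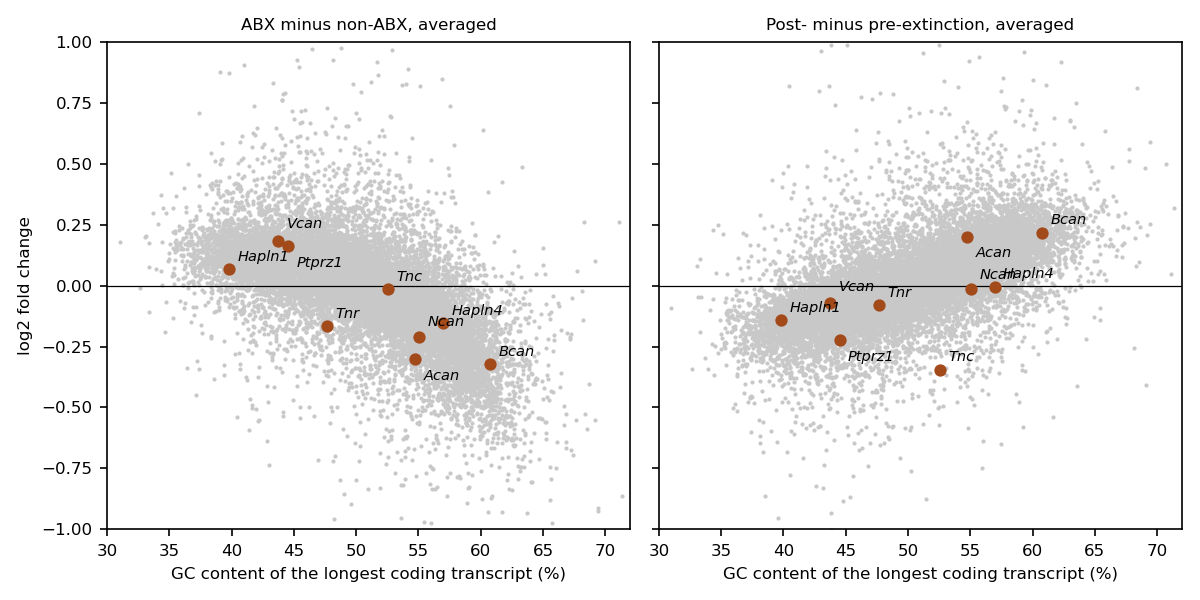
Log2 fold change against GC content of the longest coding transcript for the genes tested (grey points) and the 9 members (coloured, named), in the averaged ABX comparison (left) and the averaged stage comparison (right). Vertical axes end at -1 and 1, so genes beyond them are not shown. The grey cloud slopes down on the left (r = -0.61) and up on the right (r = 0.59), and the members lie in it except for Tnc on the right, which lies below its GC neighbours.

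Library by library, the level of several members tracked the library's own slope on GC content. Over 15 libraries Pearson's r of the log2 level with that slope was 0.98 for Bcan, 0.79 for Ncan, 0.77 for Acan and 0.50 for Hapln4. It was -0.90 for Ptprz1, -0.79 for Hapln1 and -0.68 for Vcan, and nearer to 0 for Tnr (0.19) and Tnc (-0.39). The slope and the levels come from the same libraries, and the slope is computed over all genes with a matched transcript, these among them. What makes libraries differ in this slope was not tested.

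**Figure D4:**
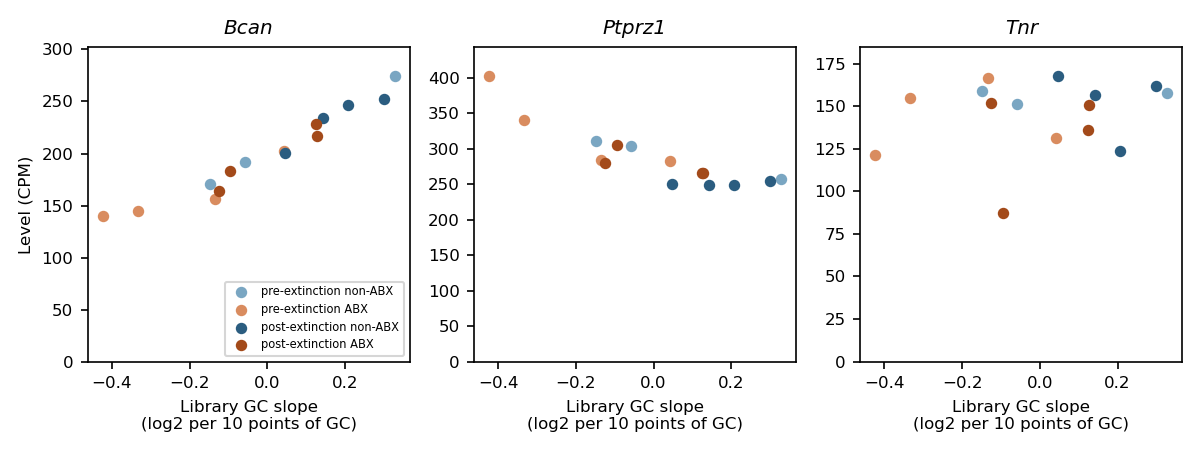
Level in CPM of Bcan, Ptprz1 and Tnr against the GC slope of the library (log2 per 10 percentage points of GC), 1 point per library, coloured by group. Bcan rises with the slope across all groups (r = 0.98), Ptprz1 declines (r = -0.90), and Tnr shows little relation (r = 0.19).

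Some members varied together over libraries and others in opposite directions before the trend was removed. Of 36 pairs, 5 had a Pearson r above 0.7 over 15 libraries and 4 had one below -0.7, with Tnr and Tnc in none of these. Bcan and Ncan had 0.77, Acan and Bcan 0.77, Acan and Ncan 0.71, Vcan and Ptprz1 0.77, and Hapln1 and Ptprz1 0.76. The most negative pairs were Bcan and Ptprz1 (-0.82) and Vcan and Hapln4 (-0.75). With the trend on GC content removed 0 of 36 pairs were above 0.7 or below -0.7. Not all pairs came nearer to 0: Bcan and Vcan went from -0.60 to 0.67, and Ncan and Tnc from 0.06 to 0.64. Others did come nearer, such as Acan and Bcan, which went to 0.13. The genomic neighbours Ncan and Hapln4 had 0.61 as fitted and 0.36 with the trend removed, and the neighbours Vcan and Hapln1 had 0.37 and -0.28. The crosslinker Tnr and its relative Tnc had 0.54 and 0.35.

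**Figure D5:**
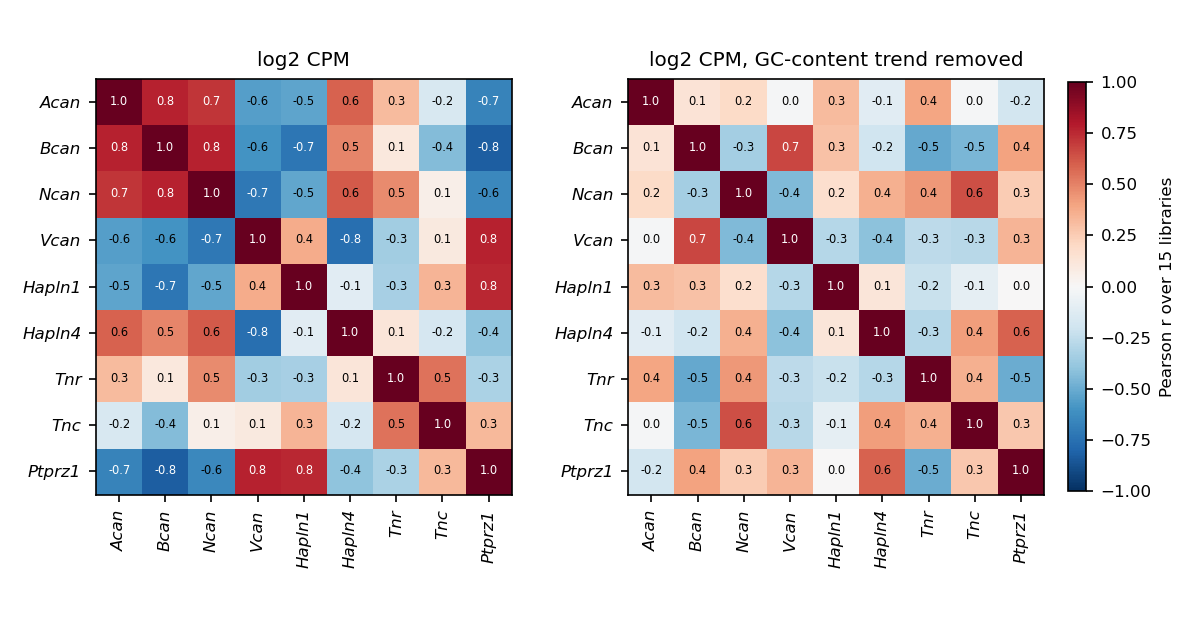
Pearson correlation of log2 CPM between members over 15 libraries, as measured (left) and with the GC-content trend of each library removed (right), on a colour scale from -1 to 1. On the left Acan, Bcan and Ncan form a red block, joined by blue cells to Vcan, Hapln1 and Ptprz1. On the right 0 of 36 pairs are beyond 0.7 in either direction, and some of these cells change sign. Bcan goes from -0.60 to 0.67 with Vcan, from -0.82 to 0.40 with Ptprz1 and from 0.77 to -0.34 with Ncan. Others keep their sign, such as Ncan and Vcan (-0.71 and -0.44).

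The genes most like each member were taken as the 2 with the highest Pearson r of log2 CPM over 15 libraries. They were sought among 13307 genes with a mean of at least 1 CPM, leaving out symbols of the Gm, Rik and LOC kinds. Their nearness to the member in GC content varied and was not set against that of all genes. Bcan was most like Kifc2 (r = 0.99, 59.5% GC) and Dvl1 (r = 0.99, 60.6% GC), and Ptprz1 most like Myo6 (r = 0.98, 44.2% GC) and Luzp2 (r = 0.97, 38.2% GC). Acan was most like Helz2 (r = 0.92, 56.1% GC) and Nat10 (r = 0.91, 52.5% GC). Ncan was most like Slc29a4 (r = 0.95, 60.1% GC) and Adarb1 (r = 0.95, 53.0% GC). For Hapln4 these were Lynx1 (r = 0.93, 55.9% GC) and Ly6e (r = 0.93, 55.4% GC). Vcan was most like Fnbp4 (r = 0.92, 47.7% GC) and Fgd6 (r = 0.91, 47.0% GC), and Hapln1 like Rxylt1 (r = 0.93, 43.1% GC) and Arpp19 (r = 0.93, 40.7% GC). Tnr was most like Glg1 (r = 0.97, 50.5% GC) and Helz (r = 0.96, 46.6% GC). Tnc had the lowest best match, Nyap2 (r = 0.88, 39.0% GC) and then Chrna7 (r = 0.87, 52.5% GC).

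The partners of the net outside the 9 genes were read from 5 further lists, and their counts are set against shares of all genes. EdgeR called 0.624% of genes for ABX and 0.963% for stage, DESeq2 13.3% and 4.54% of those with an adjusted p, voom with quality weights 5.36% and 37.8%, and edgeR with the trend on GC content removed 4.6% and 2.05%. An unadjusted p under 0.05 in edgeR's test was reached by 30.6% and 20.4%. Of 20 tested net partners (receptors, cell adhesion molecules and other proteins that bind the net), edgeR called 0 in either averaged comparison. For ABX 12 had an unadjusted p under 0.05, 11 of them lower, and 8 were called by DESeq2 and 2 by voom with quality weights. Lingo1, a component of the Nogo receptor complex, was at 235 ± 61.1 and 262 ± 36.5 CPM with ABX against 364 ± 124 and 372 ± 42.6 CPM without, before and after extinction (averaged log2 fold change -0.57, SE 0.14, edgeR's adjusted p = 0.0609). Ptprf, the chondroitin sulfate receptor LAR, had -0.41 (SE 0.11, edgeR's adjusted p = 0.0649). With the trend on GC content removed Lingo1 had -0.33 (edgeR's adjusted p = 0.0222) and Ptprf -0.18 (edgeR's adjusted p = 0.145). For stage 7 partners had an unadjusted p under 0.05, 6 of them lower, and 3 were called by DESeq2 and 14 by voom with quality weights. Ptprd, a relative of LAR, had -0.24 (SE 0.06, edgeR's adjusted p = 0.0536) and the adhesion molecule Nrcam -0.24 (SE 0.07, edgeR's adjusted p = 0.106).

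Genes that make the sugar chains showed a similar picture. Of 24 tested genes of chondroitin sulfate synthesis, edgeR called 0 for ABX or stage, with 11 and 5 at an unadjusted p under 0.05, DESeq2 called 4 and 0, and voom with quality weights 0 and 13. Chpf, a chondroitin polymerising factor whose transcript is 63.2% G and C, had -0.76 for ABX (SE 0.22, edgeR's adjusted p = 0.0683) and -0.36 with the trend on GC content removed (edgeR's adjusted p = 0.0479). Its relative Chpf2 had -0.38 for ABX (SE 0.12, edgeR's adjusted p = 0.0726) and 0.28 for stage (SE 0.12, edgeR's adjusted p = 0.207), and the chondroitin synthase Chsy3 had -0.18 for stage (SE 0.07, edgeR's adjusted p = 0.202). Of 12 hyaluronan genes 0 were called by edgeR for ABX or stage, with 4 and 3 at an unadjusted p under 0.05, DESeq2 called 1 and 0, and voom with quality weights 1 and 6. Ugdh, which makes the UDP-glucuronate used in hyaluronan and chondroitin, had 0.18 for ABX (SE 0.05, edgeR's adjusted p = 0.0681). Tnfaip6, a hyaluronan-binding protein, had 0.23 for ABX and -0.27 for stage, and Cemip, which takes part in hyaluronan breakdown, 0.14 for stage, with edgeR adjusted p of 0.117, 0.148 and 0.147.

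Among the 5 lists, proteases and other matrix genes held the calls of edgeR as fitted. Of 23 tested proteases and their inhibitors, edgeR called 0 for ABX, where 7 had an unadjusted p under 0.05, and 2 were called by DESeq2 and 0 by voom with quality weights. The genes with the smallest p for ABX were the membrane-bound metalloproteinases Mmp15 (-0.36, SE 0.11, edgeR's adjusted p = 0.0704) and Mmp17 (-0.29, SE 0.10, edgeR's adjusted p = 0.0821). For stage edgeR called 1, DESeq2 2 and voom with quality weights 8. The gene edgeR called was Adamts5, an aggrecanase that also cuts other lecticans, which was lower after extinction. Adamts5 was at 2.24 ± 0.312 and 2.42 ± 0.202 CPM before extinction and at 1.66 ± 0.268 and 1.63 ± 0.244 CPM after, without and with ABX (log2 fold change -0.50, SE 0.11, edgeR's adjusted p = 0.0333). The call held in 5 of 15 fits that left out 1 library and was lost in the other 10, with an adjusted p of up to 0.133 without pre-extinction non-ABX replicate 1, and it was lost with the trend on GC content removed (-0.40, edgeR's adjusted p = 0.0560) and with the replicate number as a block (adjusted p = 0.0543). Adamts1, which cuts the same substrates, had -0.30 (SE 0.08, edgeR's adjusted p = 0.0824). Adamts1 was called with the trend on GC content removed (-0.29, edgeR's adjusted p = 0.0465), by DESeq2 (adjusted p = 0.0146) and by voom with quality weights (adjusted p = 0.0108).

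Of 26 other brain matrix genes edgeR called 2 for ABX and 1 for stage, DESeq2 10 and 2, voom with quality weights 7 and 11, and edgeR with the trend on GC content removed 5 and 1. Matn2, the adaptor protein matrilin-2, was higher with ABX and higher after extinction. It was at 38.0 ± 2.17 and 47.3 ± 3.79 CPM with ABX against 32.3 ± 0.992 and 36.5 ± 1.08 CPM without, before and after extinction. Its log2 fold change was 0.30 for ABX (SE 0.05, edgeR's adjusted p = 0.0178) and 0.24 for stage (SE 0.05, edgeR's adjusted p = 0.0279), and it was nearly the same with the trend on GC content removed (0.29 and 0.24). The ABX call of Matn2 held in 12 of 15 fits that left out 1 library, with an adjusted p of up to 0.0647 without pre-extinction non-ABX replicate 3, and the stage call in 7 of 15, with up to 0.0892 without pre-extinction non-ABX replicate 1. With the replicate number as a block the stage call of Matn2 was lost (adjusted p = 0.0588). Fn1, fibronectin, was lower with ABX, at 102 ± 19.5 and 94.5 ± 12.3 CPM against 125 ± 8.40 and 139.7 ± 10.8 CPM (log2 fold change -0.43, SE 0.08, edgeR's adjusted p = 0.0372). The call of Fn1 held in 4 of 15 such fits, with an adjusted p of up to 0.132 without pre-extinction non-ABX replicate 3, and it held with the trend on GC content removed (-0.37, edgeR's adjusted p = 0.00927). Tnxb, which encodes tenascin-X, a relative of Tnr and Tnc, had 0.49 for stage (SE 0.15, edgeR's adjusted p = 0.118).

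The cells that make the matrix were followed by their marker genes, beside the striatal list given with the stage results. The summed level of 10 parvalbumin interneuron markers was 1044 to 1183 CPM in pre-extinction ABX, 1073 to 1137 in pre-extinction non-ABX, 1009 to 1094 in post-extinction ABX and 1037 to 1091 in post-extinction non-ABX libraries, with overlap between all groups. Pvalb itself was a small part of this sum. Its means were 49.4 and 46.9 CPM with ABX and 46.1 and 48.6 CPM without, before and after extinction. The 10 genes include Gad1, Gad2 and Lhx6, which other interneurons share, so the sum is not particular to parvalbumin cells. EdgeR called 1 of these 10 genes lower for averaged ABX and 1 lower for averaged stage, where it called 0.624% and 0.963% of all genes. With the trend on GC content removed it called 2 and 1, against 4.6% and 2.05% of genes. For 10 astrocyte markers the sum was 6120 to 8315 CPM in pre-extinction ABX, with the highest value in replicate 1, and 5897 to 6729 CPM in the 11 libraries of the other groups. That library was also the highest for Ptprz1, Vcan and Hapln1, and it had the lowest slope on GC content of any library (-0.42). Of the 10 astrocyte markers edgeR called 0 for averaged ABX and 1, lower, for averaged stage. With the trend on GC content removed it called 0 and 0. The 10 oligodendrocyte precursor markers summed to 201 to 222 CPM in pre-extinction ABX and 215 to 254 CPM in pre-extinction non-ABX, and to 218 to 247 and 229.7 to 260.0 CPM after extinction. Of these markers edgeR called 0 for averaged ABX and 1, higher, for averaged stage. With the trend on GC content removed it called 1 and 0. All 10 endothelial markers had negative fold changes for averaged ABX, 9 of them at an unadjusted p under 0.05, where 30.6% of all genes were. EdgeR called 3 of the 10, where it called 0.624% of all genes. With the trend on GC content removed it called 8, against 4.6% of genes. Their sum was 189 to 284 CPM over the ABX libraries and 277 to 315 CPM over the non-ABX libraries. Fibronectin, described above, is also made by such cells. The part of these shifts in the members' values was not tested. Libraries did not keep strand, and 2 overlapping noncoding genes, Gm4117 with Vcan and 8030451A03Rik with Tnc, were at 0.132 and 0.0275 CPM, far below the members they overlap.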

How the data were processed

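The authors deposited counts of reads, whole numbers without any normalization, for each Entrez identifier in 15 libraries. The submitters' processing notes name mm10, STAR 2.3.0 and CASAVA 1.8.2. The counting program and annotation are not given in the sources available. Per the labels' protocols, the SMARTer Ultra Low Input kit was used, which does not keep strand.

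Of 27179 identifiers 25275 matched a RefSeq symbol (99.7% of counts). In R 4.3.3, edgeR 4.0.16 kept 16816 genes (filterByExpr, minimum count 10, minimum total 15), scaled libraries by TMM and fitted a quasi-likelihood model with 4 group means to all 15. Tests were two-sided, adjusted by Benjamini-Hochberg over all genes tested and called under 0.05. Correlations used log2 CPM (prior count 2). Levels per kilobase and GC content came from the longest coding GENCODE transcript, in place of the RefSeq transcript first planned. The GC-content trend was removed by a spline (5 degrees of freedom) per library over 15332 genes.

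The members and lists were chosen with earlier results of these data known. Besides the members, genes named were the 2 most like each, in each list the 2 of smallest p in each averaged comparison, and every called list gene. Other settings were DESeq2 1.42.0, voom with quality weights (limma 3.58.1), RLE scaling, other filters, a replicate block, the compared groups alone, and each library left out; for list genes they were run after seeing the data. On data simulated with the library sizes, 79 of 100 genes changed by 0.5 (log2) and 100 of 100 changed by 1 were called in the averaged ABX comparison (16714 genes). These counts were drawn gene by gene without the GC-content slopes of the real libraries, and the changed genes were chosen above a minimum level. The shares therefore do not give the power in the real libraries.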

Additional observations from a re-analysis of the deposited data

Results flagged for a closer look

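Of 27 sets of 4 libraries checked (9 members in the 3 groups of that size), 2 held a library far from the other 3, where chance gives about 1 in 20. Both concerned Acan. In post-extinction ABX, replicate 3 was at 4.997 CPM and the others between 3.81 and 3.94 CPM. In post-extinction non-ABX, replicate 2 was at 6.15 CPM and the others between 4.64 and 4.73 CPM. Leaving these libraries out in turn changed the log2 fold change of Acan for ABX after extinction from -0.28 to -0.38 and to -0.17, with 0 calls.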

How the results depend on the processing

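All 9 members kept their side of the threshold in every comparison under RLE scaling, a filter at a mean of 1 CPM and, for the 4 pairwise comparisons, the compared groups alone, and in 58 of 63 values under DESeq2. Removing the trend on GC content turned 16 of 63 signs and left 0 members called. Under that setting, for ABX before extinction Vcan had -0.016, Hapln1 -0.0013 and Hapln4 0.16, and for ABX after extinction Bcan had 0.010. For stage without ABX, Hapln1 had 0.067, Hapln4 -0.035 and Tnr 0.0067, and for stage with ABX, Ncan had -0.12. In the averaged ABX comparison Hapln1 had -0.060, Hapln4 0.039 and Tnc 0.021, and in the averaged stage comparison Vcan had 0.037 and Hapln1 0.0085. For the interaction Acan had -0.0058, Ncan -0.0042 and Ptprz1 0.014. Voom with quality weights turned Vcan for ABX before extinction (-0.025), Ncan and Tnr for stage without ABX (0.030 and 0.0039), Ncan for the averaged stage (0.033) and Ptprz1 for the interaction (0.071), and no filter turned Vcan for stage with ABX (-0.0015). The cause was not tested.

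The number of genes called moved far more. DESeq2 called 15 and 182 genes for ABX before and after extinction, 19 and 282 for stage without and with ABX, 1977 and 704 for averaged ABX and stage, and 4 for the interaction. Voom with quality weights called 306 for ABX after extinction, 3191 and 465 for stage without and with ABX, and 902 and 6358 for averaged ABX and stage. With the trend on GC content removed the counts were 102 for ABX after extinction, 2 and 65 for stage without and with ABX, and 705 and 314 for averaged ABX and stage. Fits to the compared groups alone called 32 for ABX after extinction and 5 for stage with ABX, and without a filter 2 were called for ABX before extinction and 2 for stage without ABX.

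With the replicate number as a block, 666 genes were called for averaged ABX and 96 for averaged stage, and 1 member, Ncan, was called for averaged ABX (-0.21, adjusted p = 0.0471). The stage calls of Matn2 (adjusted p = 0.0588) and Adamts5 (0.0543) were lost under the block. Whether the numbers pair the libraries is not known. Of 21 same-numbered pairs 8 had deviations that correlated above 0.1, with a range of -0.49 to 0.37. Differently numbered pairs were not set beside them, so this check cannot tell.

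Leaving out each library in turn gave 1 to 28 genes for ABX before extinction, 0 to 13 after, 0 to 1 for stage without ABX, 3 to 237 with ABX, 4 to 3057 for averaged ABX, 14 to 2262 for averaged stage and 0 to 0 for the interaction. The highest counts came without pre-extinction ABX replicate 4 for 4 of these and without pre-extinction non-ABX replicate 3 for stage without ABX and averaged stage. Leaving out any of 14 libraries moved the averaged ABX count by over 1.5 times, and any of 12 the averaged stage count, the lowest being 4 (reached without non-ABX replicate 3 of the pre-extinction group and again without non-ABX replicate 2 of the post-extinction group) and 14 (without non-ABX replicate 4 of the pre-extinction group). Members whose sign turned had these ranges. For ABX, Tnc had -0.16 to 0.10 before extinction, -0.12 to 0.12 after and -0.086 to 0.069 on average, and Hapln1 -0.10 to 0.044 after. For stage without ABX, Hapln1 had -0.11 to 0.027, Ncan -0.11 to 0.071 and Tnr -0.083 to 0.054. For stage with ABX, Ncan had -0.029 to 0.044, Tnr -0.20 to 0.028 and Vcan -0.066 to 0.10, and for averaged stage Ncan -0.042 to 0.047 and Hapln4 -0.023 to 0.013. For the interaction, Acan had -0.057 to 0.15, Bcan -0.057 to 0.30, Ncan -0.047 to 0.13, Tnr -0.18 to 0.061, Tnc -0.062 to 0.20 and Ptprz1 -0.083 to 0.086. Acan and Tnc, with 146 to 358 counts per library, were the members where depth added most to the spread.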
